A study of Rattus norvegicus with 2 samples.

Results

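Ribosomal proteins are the protein part of the cytosolic ribosome. The symbols Rpl and Rplp mark the proteins of the large subunit, which joins amino acids, and Rps and Rpsa mark those of the small subunit, which reads the messenger RNA. On the Affymetrix rat oligonucleotide array used here, 64 probe sets of 44 genes carried a single symbol that begins with Rpl, Rplp or Rps followed by a digit, or is Rpsa, with the S6 kinase genes left out. They were 43 probe sets of 30 large subunit genes and 21 probe sets of 14 small subunit genes, out of 8799 probe sets in all. A further 40 probe sets listed several symbols, at least 1 of them of this kind, and were counted by subunit. Few of them are described singly.

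The study set the duodenum of a rat kept for 2 weeks in an immobilization cage beside that of a rat kept over the same time in a metabolic cage without immobilization. Both were male Wistar rats of 15 weeks, and no genetic change or drug is named for either. RNA of the duodenal mucosa, labelled as epithelial cells, was hybridised to 1 array per rat. With 1 array per condition there was no replicate check, so no test between conditions could be made and no p-value is given. How far any value can be trusted is limited by that number of arrays. The labels describe a single animal for each array and do not mention pooling.

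Each ribosome holds a single copy of most of these proteins, so a cell makes them in near equal amounts, and the genes are known for moving together with growth and division. In the intestine, the dividing cells lie in the crypts and the absorbing enterocytes on the villi. Most ribosomal protein messages begin with a stretch of pyrimidines, through which the kinase mTOR adjusts their translation.

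Signals are given in the units of the deposited values, and those of the immobilized rat were scaled by 1.02, which brought the median log2 ratio of measured probe sets close to 0. A signal of 39.9, the middle value of all signals on both arrays, served as the floor, and a ratio was taken only where both arrays exceeded it. Ratios are of the immobilized over the control rat on the log2 scale. Probe sets of the same gene outside the ribosomal group differed in their log2 ratio with a pooled SD of 0.31 (681 genes, 1538 probe sets). This technical SD is error within the pair of arrays and not the spread between animals.

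Across all 4105 probe sets above the floor, the log2 ratio had an SD of 0.44. Of 17 listed villus enterocyte markers 14 were represented, and all 14 exceeded the floor on both arrays. Their summed signal was 76303 units in the control rat and 67519 in the immobilized rat. Of the 14, 12 had a ratio below 0, as had 50.6% of all genes. These markers are bright, and only 19.7% of probe sets outside the ribosomal group above 3000 units had a ratio above 0. Most of the markers are themselves among those probe sets.

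Ribosomal protein messages were a little higher in the immobilized rat, in both subunits and across most genes. Of the 56 probe sets above the floor on both arrays, 49 had a ratio above 0, against 49.8% of all probe sets, and 7 a ratio below 0, against 50.1%. The median log2 ratio was 0.28, with quartiles of 0.15 and 0.39, while that of all probe sets was -0.00132. At least 1.2-fold higher were 30 of the 56 (25% of all probe sets), and 10 were at least 1.5-fold higher (8.87%). None was 2-fold higher, as 2.34% of all probe sets were. In the other direction 3 were at least 1.2-fold lower (22.4%) and 2 at least 1.5-fold lower (5.46%). Most single genes thus lay within or close to the technical SD of 0.31, and the group stood out by the number of genes on the same side.

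Ribosomal protein probe sets are bright, and bright probe sets as a whole gave lower signals in the immobilized rat. Among 358 other probe sets with signals between the 25th and the 75th percentile of the members', 41.1% had a ratio above 0. At least 1.2-fold higher were 17% of them, at least 1.5-fold 7.82% and at least 2-fold 3.63%, while 27.4% were at least 1.2-fold lower and 5.87% at least 1.5-fold lower. Their median log2 ratio was -0.05. With the arrays scaled on these probe sets of like signal, the median of the ribosomal probe sets was 0.34 and 52 of 56 were higher.

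**Figure D1:**
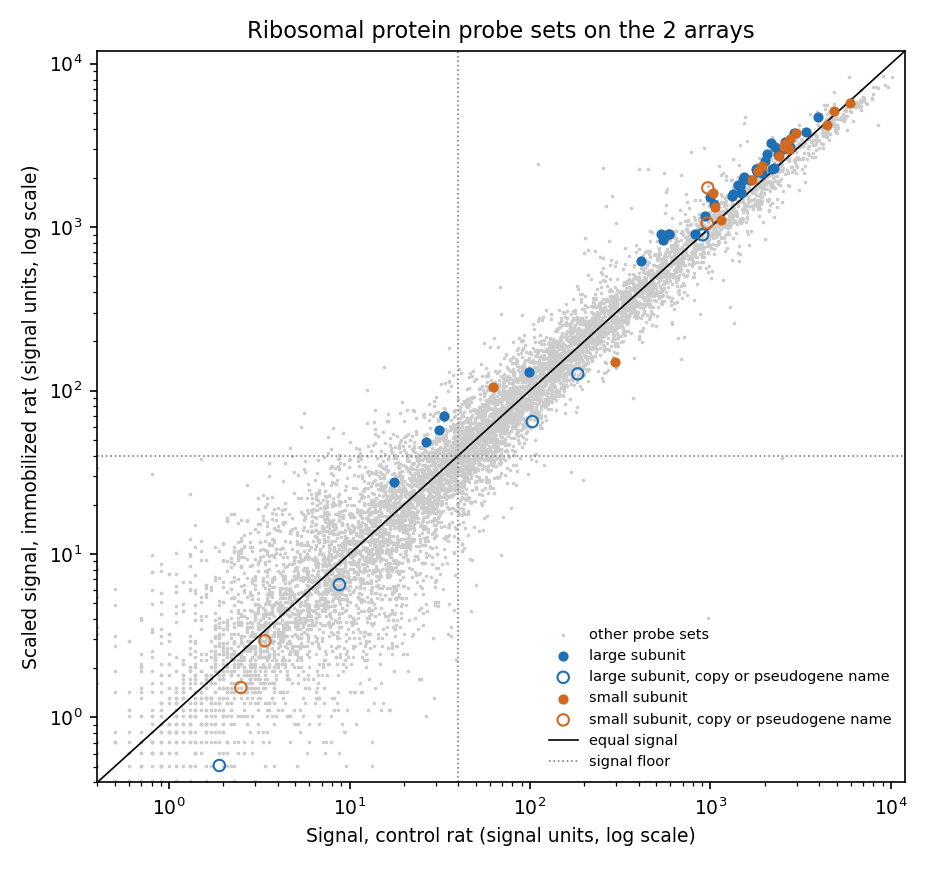
Signal of each probe set in the control rat (x axis) and scaled signal in the immobilized rat (y axis), both in signal units on log axes, with large subunit probe sets in blue, small subunit probe sets in orange, symbols of copies or pseudogenes as open circles and all other probe sets in grey. The line marks equal signals and the dotted lines the floor of 39.9. Most filled points lie just above the line, and 49 of the 56 ribosomal probe sets above the floor have a ratio above 0.

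In the large subunit, every gene without a copy or pseudogene symbol that was above the floor on both arrays was higher in the immobilized rat. There were 23 such genes, from 0.05 for Rpl13a to 0.62 for Rpl14 on the log2 scale, each taken at its brightest probe set, with a median of 0.26. Over all genes of the array, 49.4% had a ratio above 0.

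Rpl14 had 588.5 signal units in the control rat and 907 in the immobilized rat, 1.54-fold higher (log2 ratio 0.62). Rpl23, a protein near the face that meets the small subunit, went from 2154 to 3293 units, 1.53-fold higher (0.61). Rpl41, the smallest ribosomal protein, had 414.0 and 624 units, 1.51-fold higher (0.59). These were the 3 large subunit genes at least 1.5-fold higher, as were 8.31% of all genes.

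Next in order came Rpl22, with 2286 and 3096 units (0.44), and Rpl18, with 1539 and 2037 units (0.40). Rpl27a had 2907 units in the control rat and 3775 in the immobilized rat (0.38). A dimmer probe set that lists Rpl27a beside a copy had 275.9 and 238 units (-0.21). From Rpl22 downwards, neighbouring genes without a copy symbol in this order differed by far less than the technical SD. The order of such neighbours therefore carries no weight. Neighbours in a sorted list lie close in any case, so this says nothing of genes farther apart.

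At the lower end, Rpl13a, which also acts outside the ribosome in silencing the translation of inflammatory messages, had 2238 and 2310 units (0.05) at its brightest probe set. Rpl26, which lies near the exit of the tunnel for the new protein chain, had 2195 and 2280 units (0.05). Both had a second probe set with a larger ratio, described below. Rplp0, the base of the stalk that recruits elongation factors, was in the middle of the range with 3962 and 4725 units (0.25).

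The 3 large subunit genes with a ratio below 0 all carry the symbol of a copy, judged by its ending alone. All 3 are annotated as protein coding. Rpl3l, which replaces Rpl3 in striated muscle, had 103.0 units in the control rat and 64.6 in the immobilized rat (-0.67), 1.59-fold lower, as at least 1.5-fold lower were 4.87% of all genes. Its second probe set lay below the floor on both arrays. No member gene was 2-fold lower, as 0.673% of all genes were. Rpl19l4 had 184.0 and 127 units (-0.54). Rpl36al1 had nearly equal signals of 905.0 and 899 units (-0.01), and its sign turned when the arrays were scaled on probe sets of like signal. Of the 3, only Rpl36al1 had signals far above the floor.

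Some large subunit probe sets were not measured on both arrays. Rpl17 had 31.5 units in the control rat, below the floor, and 57.2 in the immobilized rat, at least 1.43-fold higher. Rpl30 had 26.6 and 48.5 units, at least 1.22-fold higher, and a further probe set of Rpl21 had 33.5 and 69.8 units, at least 1.75-fold higher. Rpl5, which joins Rpl11 on the ribosome, and the copy Rplp1l3 lay under the floor on both arrays (17.6 and 27.7 units, and 1.90 and 0.508 units), so nothing can be said of their direction from these probe sets. A probe set that exceeded the floor in the immobilized rat alone can only read as higher, so these bounds say nothing of the group's direction. Brighter probe sets that list these genes beside copies were measured on both arrays. For Rpl17 they had 1419 and 1991 units (0.49) and 1296 and 2104 units (0.70). That of Rpl30 had 258.6 and 425 units (0.72), and that of Rpl5 had 3120 and 3648 units (0.23). No such probe set is at hand for Rplp1l3.

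In the small subunit, 11 of 13 genes were higher, and 9 of 11 without a copy or pseudogene symbol, against 49.4% of all genes. The median log2 ratio was 0.29 either way. Rps10 had 1026 signal units in the control rat and 1607 in the immobilized rat, 1.57-fold higher (0.65). Rps24 had 62.5 and 105 units, 1.68-fold higher (0.75), at a probe set close to the floor. A far brighter probe set on the same sequence, which lists Rps24 beside a copy, had 2372 and 2925 units (0.30). Rps10 and Rps24 are both known from Diamond-Blackfan anaemia, an inherited failure of red cell production caused by ribosomal protein mutations. By single-symbol probe sets they were the only small subunit genes without a copy symbol at least 1.5-fold higher. The size for Rps24 is thus unsettled.

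Rpsa, also known as the laminin receptor, had 2975 and 3759 units (0.34), and Rps6, the substrate of the S6 kinases, had 2763 and 3466 (0.33). Rps3a followed with 2581 and 3231 units (0.32). Rps23, which lies at the decoding centre, had 1840 and 2195 units (0.26). These genes were about as much higher as the middle of the large subunit.

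Rps16 and Rps29 were the only genes without a copy symbol whose brightest probe set had a ratio below 0. Rps16 had 4448 units in the control rat and 4195 in the immobilized rat (-0.08), and Rps29, a small zinc-binding protein, had 5898 and 5727 (-0.04). Their sign depended on the scaling, since after quantile normalization the log2 ratios were 0.02 for Rps16 and 0.14 for Rps29, and after loess 0.01 and 0.08. Rps3, a protein at the entry of the messenger RNA channel, had 2733 and 2993 units (0.13). The copies again scattered. Rps4x-ps9, annotated as a pseudogene, had the highest ratio of the single-symbol probe sets, with 966.0 and 1738 units (0.85). Brighter probe sets that list it beside Rps4x had 4564 and 4376 units (-0.06) and 3805 and 4032 units (0.08). A rise of the pseudogene message is therefore not settled. Rps27l, a relative of Rps27, had 959.5 and 1061 units (0.14), and both probe sets of Rps2-ps1 lay far below the floor.

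**Figure D2:**
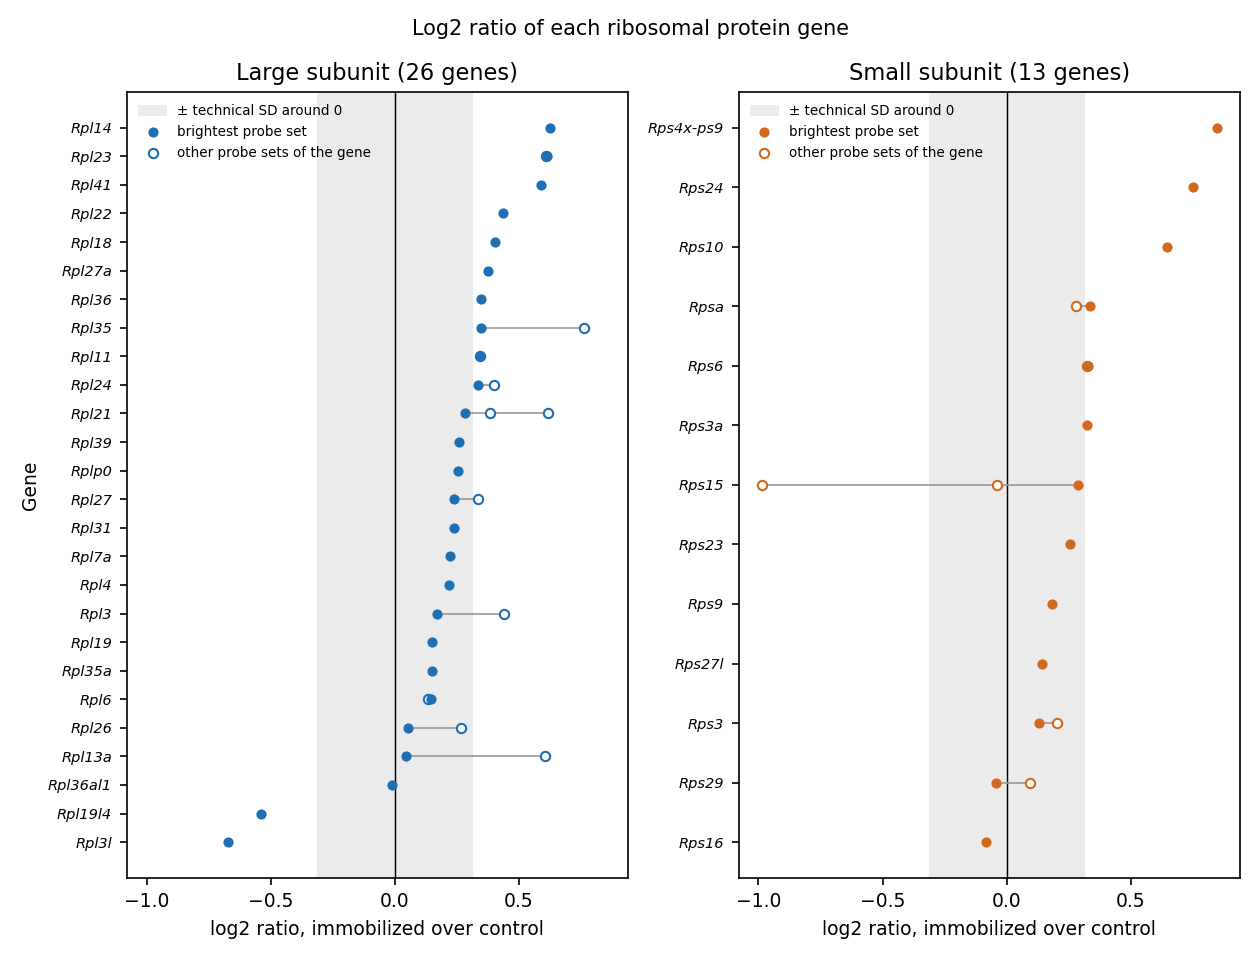
Log2 ratio of the immobilized over the control rat (x axis) for each gene above the floor on both arrays (y axis), with the large subunit on the left and the small subunit on the right. Filled points are the brightest probe set of a gene, open points its other probe sets, joined by a line, and the grey band is 0 ± the technical SD of 0.31. Of 26 large subunit genes, the 23 without a copy symbol, set apart after the values were seen, lie to the right of 0. The widest line is that of Rps15.

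The subunits could not be told apart by these ratios. By gene, with copies included, the median was 0.25 for 26 large subunit genes (range -0.67 to 0.62) and 0.29 for 13 small subunit genes (-0.08 to 0.85). The large subunit was thus lower by -0.04 on the log2 scale. By probe set the order was the other way, with 0.33 for 37 large subunit probe sets and 0.26 for 19 of the small subunit. The sign of the difference also turned with the mean over a gene's probe sets, where it was 0.04, and without probe sets whose name carries a letter before its ending, where it was 0.07. Under every setting tried the difference was 0.10 or less in size. The technical SD describes single probe sets and does not measure the error of a difference of medians, which was not estimated. At least 1.2-fold higher were 11 of the 26 large and 7 of the 13 small subunit genes, against 23.7% of all genes.

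The 40 probe sets with several symbols, which entered none of the counts and medians of the group above, gave the same picture. Most of them list a ribosomal protein gene beside symbols of its copies or pseudogenes. In all, 38 were above the floor on both arrays, 36 of these had a ratio above 0, against 49.8% of all probe sets, and 25 were at least 1.2-fold higher, against 25%. The median was 0.32 for 23 large subunit probe sets and 0.30 for 15 small subunit probe sets, and no probe set was 2-fold higher or lower. With both kinds together, 85 of 94 probe sets were higher and the median was 0.30. Such probe sets do not add independent animals, as they were read from the same RNA and the same arrays.

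Every one of the 37 genes without a copy symbol has copies in the rat genome annotation of RefSeq, with a median of 15 and up to 26 symbols of copies or pseudogenes each. Whether the probes of a gene also bind messages of its copies was not tested. The values of named genes are therefore uncertain as to which copy gave the signal.

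Probe sets of the same gene gave the same direction in 13 of the 15 genes that had more than 1 above the floor. By pair, 16 of 19 had the same sign, against 64.5% of 1059 pairs outside the ribosomal group. With 49 of 56 members above 0, most pairs in the group would share a sign in any case. The log2 ratios of probe sets of the same member gene differed with a pooled SD of 0.27 over 32 probe sets, and of 0.16 without Rps15. Probe sets designed on the same sequence were closest. Of 9 such pairs 7 differed by less than 0.1, compared with 1 of 10 pairs from different sequences. Outside the ribosomal group the same was true of 30.9% of 376 pairs and 16.3% of 683 pairs. Pairs on the same sequence can share probes and are not independent readings.

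For Rpl11, which binds the p53 regulator Mdm2 when ribosome assembly is disturbed, both probe sets gave 0.34, from 2596 to 3296 units and from 1778 to 2257 units. Rpl23 had 0.61 at both, the second one going from 995.9 to 1521 units. Rps6 had 0.33 and 0.32, with 1066 and 1334 units at the second. In these 3 genes the log2 ratios of the probe sets lay within 0.1 of each other.

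Rpl24 had 0.34 and 0.40, Rpl27 0.24 and 0.33, Rpsa 0.34 and 0.28, and Rps3 0.13 and 0.20. Rpl6 had 0.14 and 0.13 at probe sets from different sequences. In all of these the readings lay within 0.1 of each other, well inside the technical SD.

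Larger gaps appeared in a few genes. Rpl13a had 0.61 at its dimmer probe set, from 548.1 to 835 units, against 0.05 at the brighter. Rpl35 had 0.76 at the dimmer one, from 534.1 to 907 units, and 0.35 at the brighter, from 1416 to 1803 units. Rpl21 had 0.28, 0.38 and 0.62 at its 3 probe sets above the floor. In each the ratio was above 0 at every probe set, but the size was set by the choice of probe set.

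Rpl3, which lies at the centre where peptide bonds form, had 0.17 and 0.44, and Rpl26 had 0.05 and 0.27. Rps29 had -0.04 and 0.09. Rps15, a protein near the decoding site, was the exception in direction. Its brightest probe set went from 1930 to 2353 units (0.29). The other pair, from 1 expressed sequence tag, went from 296.4 to 149 units (-0.99) and from 1141 to 1110 units (-0.04). Both carry endings that Affymetrix gave to probe sets that did not meet all of its design rules. The direction of Rps15 is therefore unsettled here.

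Across all 56 members the log2 ratio had no clear relation to the signal. The Spearman correlation of log2 ratio and mean signal was -0.19, while Pearson's r on the log2 signal was 0.18. Without the 5 members at or below 500 units, a limit chosen after the values were seen, the Spearman correlation was -0.34 and Pearson's r -0.45 (51 probe sets), so its sign rests on a few dim members. These are descriptions across probe sets that share the same 2 arrays, and the signal itself enters the ratio. The median log2 ratio was 0.49 for 12 members under 1000 units, 0.30 for 18 members from 1000 to 2000, 0.27 for 18 members from 2000 to 3000 and 0.21 for 8 members above. Of the 18 members from 2000 to 3000 units all were higher, and of the 8 above 3000 units 6 were.

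Other probe sets had lower medians than the members in every signal class, below 0 in the upper 3 classes and close to 0 in the lowest. Their medians in the same classes were 0.02, -0.05, -0.06 and -0.17, and 19.7% of the 178 other probe sets above 3000 units had a ratio above 0. In the brightest class, the large subunit had a median of 0.25 (3 probe sets) and the small subunit 0.09 (5 probe sets). Whether the brightest probe sets were near the upper end of the scanner's range was not tested.

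**Figure D3:**
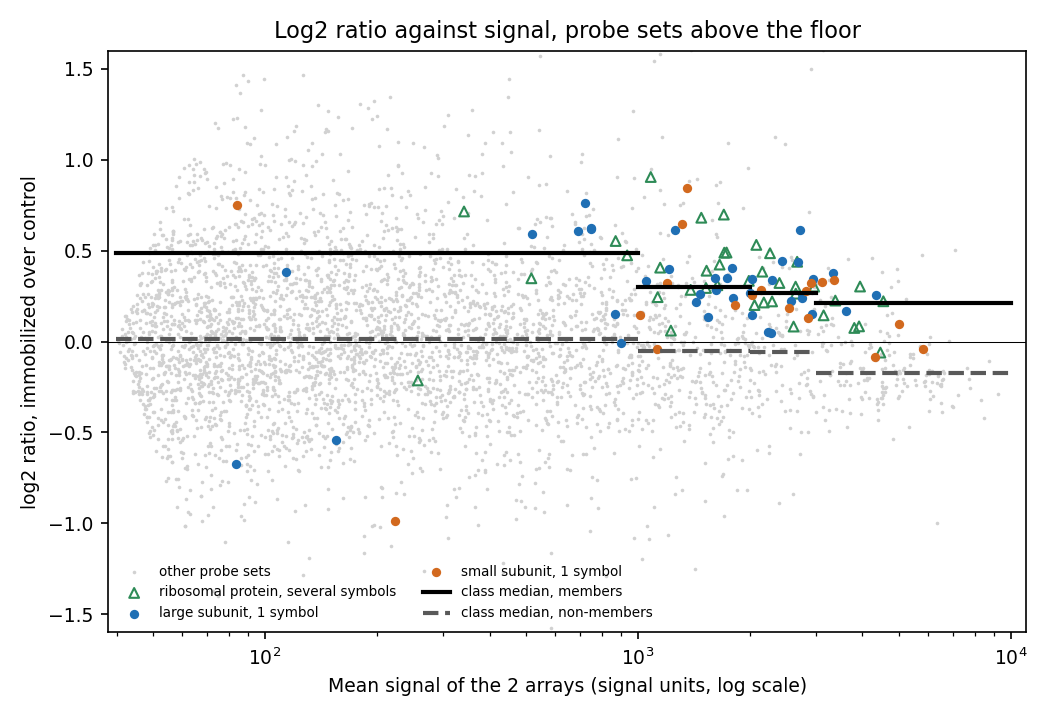
Log2 ratio of the immobilized over the control rat (y axis) against the mean signal of the 2 arrays in signal units (x axis, log scale) for probe sets above the floor, with ratios beyond 1.6 in either direction not drawn. Solid bars are the median of single-symbol ribosomal probe sets in each signal class and dashed bars that of probe sets outside the group. The solid bars go down from 0.49 to 0.21 and the dashed bars from 0.02 to -0.17.

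Because most of these genes were higher together, their start regions are shown. RefSeq start regions of the build GRCr8, which run from 250 bases before to 50 bases after the annotated start, were matched for 37 of the 44 genes. The 30 bases around the start are printed for the 3 highest and 2 lowest genes of each subunit that have no copy symbol and have a start region. The order is that of the brightest single-symbol probe set, and other probe sets of a gene can differ. The start lies after base 15, and capitals mark the longest unbroken run of C and T.

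The large subunit genes, from the highest ratio to the lowest, read as follows.
Rpl14, chr8:129163605-129163634, plus strand: gggcgggCCCTCTCCCTTCTCgctgagcgc
Rpl23, chr10:83272170-83272199, minus strand: actaaCTTCCTTTCTgactctttccggacg
Rpl41, chr7:1563483-1563512, minus strand: ggcggCTCggaagtgacgacaccaagcacg
Rpl26, chr10:54109677-54109706, plus strand: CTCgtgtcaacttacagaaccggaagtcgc
Rpl13a, chr1:104748899-104748928, minus strand: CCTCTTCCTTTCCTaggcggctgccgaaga

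The small subunit genes read as follows in the same order.
Rps24, chr16:96502-96531, plus strand: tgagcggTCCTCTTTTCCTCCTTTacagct
Rps10, chr20:5700730-5700759, minus strand: gccgcgcacgCCCCTTCCTTTCCagcctcc
Rpsa, chr8:128728864-128728893, plus strand: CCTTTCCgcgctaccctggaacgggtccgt
Rps3, chr1:163195762-163195791, minus strand: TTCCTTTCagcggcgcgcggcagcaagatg
Rps16, chr1:92770643-92770672, plus strand: cctggaaaatcggtcggggtggCCCCaagc

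Long pyrimidine runs were common in the group. A run of at least 8 bases was found in 21 of 37 genes (56.8%) and in 11.4% of all 27457 start regions, and the median length was 9 bases against 4. Genes with a large and with a small ratio both had such runs, as Rpl14 with 14 bases (0.62) and Rps3 with 8 bases (0.13 and 0.20) show. Rpl13a also had 14 bases, with 0.05 at its brighter and 0.61 at its dimmer probe set. Among 31 genes without a copy symbol that had both a ratio and a start region, the Spearman correlation of run length and log2 ratio was 0.17, given as a description. The median ratio was 0.27 for 18 genes with a run of at least 8 bases and 0.33 for 13 genes with a shorter run. Annotated starts can be displaced from the true ones, so a short run says only that these letters are not in this window.

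**Figure D4:**
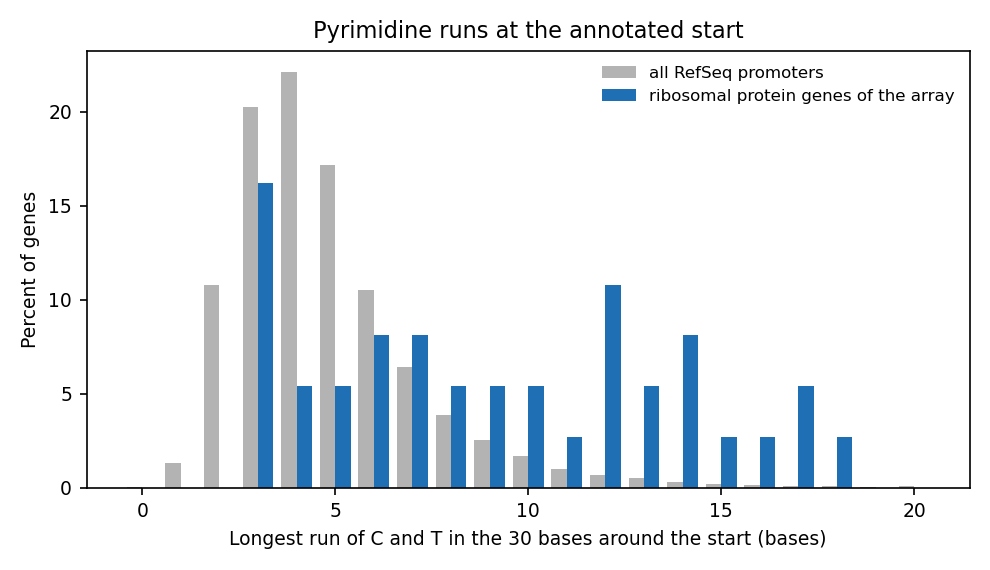
Longest run of C and T in the 30 bases around the annotated start (x axis, in bases, drawn up to 20) and percent of genes with that length (y axis), for the 37 ribosomal protein genes in blue and all 27457 RefSeq start regions in grey. The grey bars peak at short runs around the median of 4 bases, and the blue bars spread to 18 bases with a median of 9.

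Words of fixed letters were also counted over the whole 300 bases on both strands. The pyrimidine word CTTTCC was found in 18 of 37 genes (48.6%) and in 26.4% of all start regions. CTTTTC was found in 13 genes (35.1%, against 23.1%), and 5 genes held both words, which can overlap. Within 30 bases of the start on the strand of the gene, CTTTCC was found in 12 genes (32.4%) and in 2.68% of all. The word CCGGAAG, the core bound by factors of the Ets family, was found in 9 genes (24.3%, against 9.22%), AAGATGG, which holds the core bound by YY1, in 8 (21.6%, against 7.30%), and TATAAA in 5 (13.5%, against 14.3%). AAGATGG also holds ATG, the letters of a start codon, and the window reaches past the annotated start. Within 30 bases of the start on the strand of the gene, it was found in 4 genes (10.8%, against 1.74%). Whether those are start codons was not tested. These matches of all words describe letters and not binding sites.

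The 150 bases before the start are printed for the highest gene of each subunit that holds CCGGAAG on either strand there, with that word in capitals.
Rpl41, chr7:1563498-1563647, minus strand: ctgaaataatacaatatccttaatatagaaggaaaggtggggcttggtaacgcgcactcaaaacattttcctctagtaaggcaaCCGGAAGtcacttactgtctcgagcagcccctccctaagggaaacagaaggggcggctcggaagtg
Rps10, chr20:5700745-5700894, minus strand: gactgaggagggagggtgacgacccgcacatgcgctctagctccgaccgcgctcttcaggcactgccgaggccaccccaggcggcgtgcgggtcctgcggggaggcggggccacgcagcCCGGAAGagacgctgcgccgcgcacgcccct
In Rpl41 the word ends 59 bases before the start and in Rps10 24 bases before it.

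The rest of the translation machinery was divided. Genes of ribosome assembly in the nucleolus were higher for 8 of the 8 above the floor. The elongation list, which includes the kinase Eef2k, was higher for 4 of 4, with Eef1a1 close to 0 at 0.04. Initiation factors and mitochondrial ribosomal proteins divided evenly. Over all genes of the array 49.4% were higher.

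In the nucleolus, where ribosomal RNA is made and joined to ribosomal proteins, the median log2 ratio was 0.56. Polr1d, a subunit shared by RNA polymerases I and III, had 130.7 signal units in the control rat and 294 in the immobilized rat, 2.25-fold higher (1.17), the only gene of these lists past 2-fold, as 2.02% of all genes were. Dkc1, the enzyme that makes pseudouridine in ribosomal RNA, had 74.2 and 139 units (0.91, and 0.62 at another probe set). Ncl, which encodes nucleolin, had 266.1 and 435 units (0.71). A further 3 genes of the list lay below the floor on both arrays.

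Elongation factors move the ribosome along the message. Eef1g had 1311 and 1953 units (0.58) and Eef2, which drives translocation, had 3095 and 4237 units (0.45), with 0.33 to 0.63 over 4 probe sets. Eef2k, the kinase that inhibits Eef2, had 51.3 and 74.1 units (0.53), and Eef1a1 had 2397 and 2459 units (0.04), turning to -0.00449 after quantile normalization. The members of this list thus ranged from nearly equal signals to a ratio of 0.58.

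Of 19 initiation factor genes, including kinases and binding proteins that share the Eif symbol, 9 were higher and 10 lower, with a median of -0.01. The lowest was Eif4a2, an RNA helicase, with 1339 and 863 units (-0.63, and -0.76 at another probe set). The farthest on the other side were Eif3b, with 446.9 and 715 units (0.68), and Eif5b, which joins the subunits, with 178.3 and 272 units (0.61). The list had no common direction, and the sign of a few members near 0, such as Eif4h and Eif3m, turned with the scaling.

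Mitochondrial ribosomal proteins, which serve a separate ribosome, were higher for 7 of 12 genes, with a median of 0.03. Mrpl44 had 78.3 and 117 units (0.58), Mrpl23 had 123.3 and 176 units (0.51), and Mrps6 had 66.0 and 46.6 units (-0.50). As a list they had no common direction either, and Mrpl13 and Mrpl45, both at 0.03, turned below 0 after quantile normalization or loess.

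In the TOR pathway, which controls ribosome production, 5 of 7 genes were higher, with a median of 0.13. Mtor itself had 80.4 and 160 units, 1.99-fold higher, Rictor had 56.6 and 82.8 units (0.55), and Rheb, the activator of mTOR, had 892.3 and 686 units (-0.38). Of 4 tRNA synthetases, Farsa had a log2 ratio of 0.68, Tars1 0.36 and Vars1 -0.17. Kars1, named after its value was seen, had nearly equal signals (0.00612), and its sign turned under 4 of 5 other scalings. Rack1, a scaffold protein bound to the small subunit, had 1869 and 2470 units (0.40), and Naca, which shields new protein chains, had 1130 and 1237 units (0.13).

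**Figure D5:**
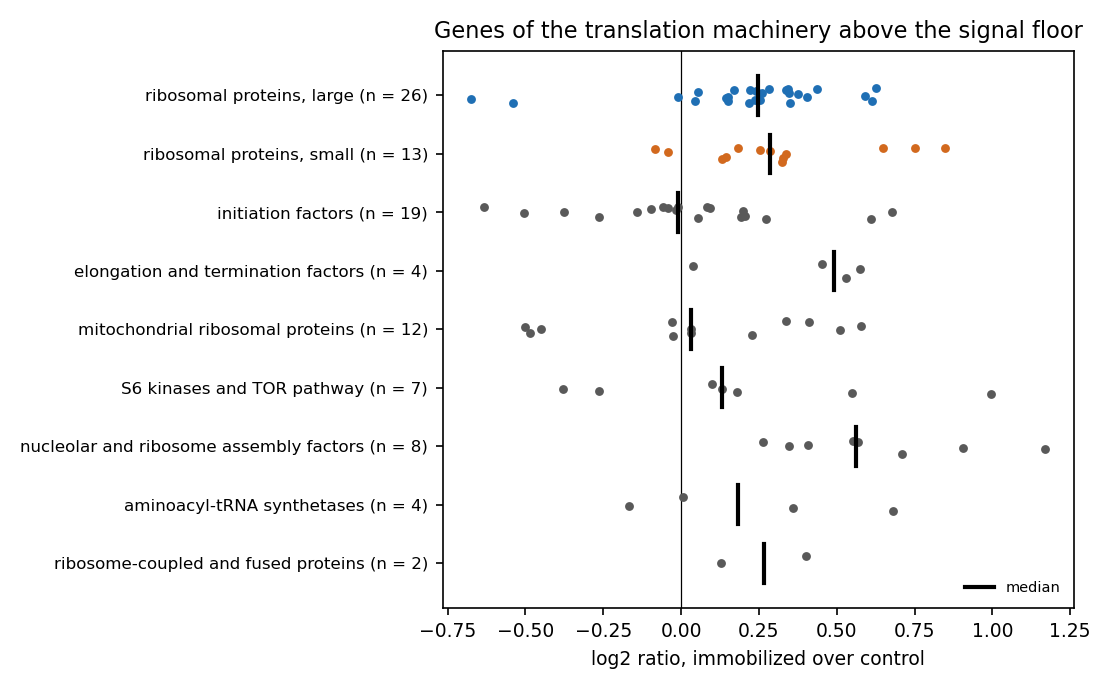
Log2 ratio of the immobilized over the control rat (x axis) for genes above the floor in each list (y axis), 1 point per gene at its brightest probe set, with the list median as a black bar. The bars stand at 0.25 and 0.29 for the large and small ribosomal subunit, at 0.56 for nucleolar and assembly factors and at -0.01 for initiation factors.

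Markers of cell types differed between the arrays in the same comparison. Of 23 listed crypt and cell division genes 15 were represented, and 9 could be measured on both arrays. Of these 8 were higher, against 49.4% of all genes, with a median log2 ratio of 0.47. The summed signal of the list was 1569 units in the control rat and 2148 in the immobilized rat. Exocrine pancreas genes, with 21 of 25 listed on the array, were higher for 16 of 19, with a median of 0.69. Their sums were 14574 and 19412 units, of which Zg16 alone, lower at -0.38, held 6825 and 5244. The next brightest of the list, Amy2a3, had 1591 and 3384 units (1.09). Which cells gave the Zg16 signal was not tested, so these sums may not stand for the pancreas genes. Villus markers were lower for 12 of 14, against 50.6% of all genes, with a median of -0.17. Anpep, Fabp1 and Rbp2 turned above 0 after quantile normalization or loess. The median control signal of the 14 markers was 5364 units. Probe sets outside the ribosomal group above 3000 units also had a median of -0.17, and 19.7% of them were higher. Most of the villus markers are themselves among those probe sets, so the closeness of the medians decides nothing. No gene of these lists was listed at 0 on either array. The part of these cell types in the ribosomal ratios was not tested. In a bulk sample, more cells of a type and more RNA per cell cannot be told apart.

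Of the other lists, goblet, Paneth and Brunner gland genes were higher for 3 of 7 (median -0.23, sums of 13088 and 10305 units). That median hides opposite moves. Lyz2 had 1.03, RatNP-3b 1.44 and Pla2g2a 1.72, while Reg3g had -1.98, Reg3b -2.39, and Muc2 and Tff3 -0.23 each. Defa5, Tff1 and Tff2 lay below the floor on both arrays. Lymphocyte and plasma cell genes were higher for 4 of 5 (0.15, sums of 629 and 781 units). Smooth muscle genes were higher for 3 of 6 (0.25, sums of 1519 and 1703 units). The share over all genes was 49.4%. The hybridisation spike-ins, RNAs added to both samples, were lower for 7 of the 9 probe sets that could be measured, with a median log2 ratio of -0.21.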

How the data were processed

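The deposited table holds 1 signal intensity on a linear scale per probe set and array, made by the authors from the scans. MAS5 is named per the submitters' processing notes, while the design text gives Affymetrix software, version 4.0, so the algorithm is unsettled. The trimmed mean (2%) was 216.0 on the control array and 215.9 on the other, so the arrays were already scaled. Depth does not apply to arrays, and detection calls were not used here.

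Of 8799 probe sets, 59 were array controls, 7006 had 1 symbol, 308 several and 1426 none in the platform annotation. Of the single symbols 6985 were brought up to date by gene ID. The immobilized rat's array was scaled to a median log2 ratio of 0 among probe sets above the 50th percentile of signal, and the floor was then reset there. A gene was represented by the probe set with the highest mean signal. A gene above the floor on 1 array has its signal over the floor as a bound.

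Members, lists and alternatives were chosen with earlier results of these data known. Genes were named if they were among the 6 highest or 4 lowest of their subunit, if several of their probe sets could be measured, if they were above the floor on 1 array or neither, or if they were among the 3 of a translation list farthest from 0. A few others (Rplp0, Rps23, Eef1a1) were named for their known roles, after their values were seen. A copy symbol ends in l, l and a number, or ps and a number. Start regions come from RefSeq (GRCr8). Groups came from the sample titles. The counting was tested on simulated data with a known shift. Tables were handled with pandas 2.3.3 and numpy 2.4.6 in Python 3.11.15, loess with statsmodels 0.14.6, correlations with scipy 1.17.1 and figures with matplotlib 3.10.9.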

Additional observations from a re-analysis of the deposited data

How the results depend on the processing

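Alternatives were loess (span 0.3), quantile normalization, scaling by the trimmed mean (2%) or on other probe sets of like signal, no scaling, a floor at the 30th or the 70th percentile, the array's own symbols, no suffixed probe sets, the mean over a gene's probe sets and list means. Leaving out copy symbols and adding probe sets of several symbols were chosen after seeing the data. Over these, the median log2 ratio ranged from 0.26 to 0.34 for all member probe sets, from 0.22 to 0.33 for large subunit genes and from 0.26 to 0.34 for small subunit genes. The pooled SD between probe sets of a gene ranged from 0.27 to 0.29. The difference of large minus small subunit medians ranged from -0.10 to 0.07. It reversed from -0.04 to 0.0678 without suffixed probe sets and to 0.0418 with the mean over probe sets, so no order of the subunits is given. Of the 56 probe sets, 49 to 52 were higher and 27 to 37 at least 1.2-fold higher over the scalings, with 27 as deposited or by the trimmed mean, 36 with loess and 37 on like signal. Without suffixed probe sets 28 of 31 were higher and 18 at least 1.2-fold higher, and with those of several symbols 85 of 94 and 55. The other 85 of 91 values kept their sign and stayed within 0.1 on the log2 scale or 1.5 times the count. No scaling moved the median of all probe sets by over 0.1. No paired analysis was possible because each group has 1 array and the labels give no replicate numbers. Signal over background limits Rps24, Rpl3l and Rpl19l4, and with 1 rat per condition nothing here measures the spread between animals.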

Other observations

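Ratios within the ribosomal group were also counted by kind of probe set. The medians of the larger kinds lay between 0.24 and 0.34, and no error of these medians was estimated. The 25 members designed on expressed sequence tags and above the floor had a median log2 ratio of 0.24, and 20 of them were higher. The 31 members designed on other sequences had a median of 0.32, and 29 of them were higher. The 9 probe sets with the ending g_at, all higher, had a median of 0.34 (range 0.13 to 0.61), and the 31 with the plain ending at had 0.32. The 12 with the ending s_at had 0.26, and 2 of them were lower. The 3 above the floor with the ending i_at had 0.05, and the single one with r_at -0.04. Among the pairs of probe sets of a gene, the dimmer one had the larger ratio in 11 of 19 in the ribosomal group and in 48.2% of 1059 pairs outside it.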
